A study of Mus musculus with 6 samples.

Results

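The genes described here encode enzymes that cut Notch receptors and the nuclear complex through which the released fragment acts. They comprise 4 gamma-secretase genes (Psen2, Ncstn, Aph1a and Psenen), the protease gene Adam10, the DNA-binding factor gene Rbpj and the 3 Mastermind genes (Maml1, Maml2 and Maml3). These 9 genes were taken by name from the 40808 gene IDs of the deposited count table, and all 9 passed the filter on low counts that left 14110 genes for testing. RNA came from spleens of mice that had received bone marrow, and the labels name it as RNA of leukaemia cells. Of the 6 libraries, 3 are titled NO_DOX with the treatment given as no (replicates 4, 5 and 6) and 3 are titled ON_DOX with the treatment given as Dox (replicates 10, 11 and 12). The labels give no genotype, transgene, promoter, dose, duration, strain, sex or age for either group, and they do not say whether the libraries came from separate mice, so p-values measure only the spread between these libraries. The series' title places the work in the control of NOTCH by UVRAG, ITCH and the ESCRT sorting machinery.

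Notch is a transmembrane receptor that is activated by cutting. After a ligand on a neighbouring cell pulls on it, ADAM10 removes most of the extracellular part, and gamma-secretase, an intramembrane protease built from a presenilin, nicastrin, an APH1 protein and PEN-2, then frees the intracellular domain. This domain enters the nucleus, binds RBPJ on DNA and, with a Mastermind protein, recruits histone acetyltransferases. In blood, the pathway is known for directing progenitors to the T cell lineage, for T cell leukaemia when overactive, and for the formation of marginal zone B cells in the spleen.

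Libraries held 5541486 to 8725767 counts, a depth at which 3 counts correspond to 0.309 to 0.608 normalized CPM (counts scaled to library size, with TMM factors that correct for library composition). The groups differed across the transcriptome: 6438 of 14110 genes passed an adjusted p-value of 0.05, which is 45.6% of those tested, with 23.6% higher and 22.1% lower with Dox (edgeR quasi-likelihood test). Replicates with Dox varied more, with a common biological coefficient of variation of 0.515 against 0.190 without Dox. All 11 T cell markers were detected in every library, but their summed level was 1927 to 2076 CPM without Dox and 212 to 286 CPM with Dox. Of these, 9 fell, while Cd2 (means 127.6 and 117 CPM) and Cd5 (40.3 and 24.2 CPM) overlapped between the groups and were not called. The 10 B cell markers summed to 30.6 to 37.0 CPM without Dox and to 1856 to 1946 CPM with Dox. Summed levels of 9 myeloid markers were 291 to 350 CPM and 2057 to 2098 CPM, a difference carried mostly by S100a9 (means 26.6 and 1184 CPM) and S100a8 (23.9 and 365 CPM). Of these 9, 5 rose, Csf1r, Cd68 and C1qa were not called, and the macrophage marker Adgre1 fell (16.02 and 4.98 CPM, adjusted p = 0.00786, edgeR). Summed levels of 4 megakaryocyte markers were 58.8 to 69.8 CPM and 206 to 263 CPM, respectively. Those of 6 erythroid markers were 57490 to 62750 CPM and 69850 to 75190 CPM, and those of 7 stromal and endothelial markers 181 to 205 CPM and 192 to 286 CPM. Among the latter, the endothelial genes Kdr and Stab2 rose (means 11.8 and 42.4 CPM, and 10.2 and 48.5 CPM), and the stromal genes Col1a1 and Pdgfrb fell (59.5 and 34.1 CPM, and 35.1 and 19.8 CPM). Without Dox the neutrophil marker Ly6g had 0 counts in all 3 libraries, and the B cell markers Blk and Cr2 had 0 counts in 2 and 1 of them. With Dox the T cell gene Cd3d stood at 16.1 CPM and the B cell gene Ms4a1 at 588 CPM, against 473 and 4.68 CPM without Dox. Counts of 4 Y-linked genes were 545 to 801 in the NO_DOX libraries and 0 in each ON_DOX library. Xist, which coats the silenced X, had 193 to 324 counts in the NO_DOX libraries, which thus held both, and 3347 to 5669 in the ON_DOX libraries. Dox and sex-linked expression cannot be told apart. In such bulk samples fewer cells of a type and less RNA per cell cannot be told apart either, and the part of cell composition in the results that follow was not tested.

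Among the 9 genes, Maml2 and Psen2 rose with Dox, Aph1a and Psenen fell, and Rbpj, Adam10, Ncstn, Maml1 and Maml3 did not pass the test. The 4 calls, 2 in each direction, make up 44.4% of the 9 genes and stand beside the 45.6% of all genes. The median log2 fold change of the 9 genes was -0.0021, against 0.073 over all tested genes. The libraries of one group lay wholly to one side of the other for 6 of the 9, beside 59.6% of all tested genes. Counts of this set are thus close to those of the transcriptome, and the description turns on single genes.

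**Figure D1:**
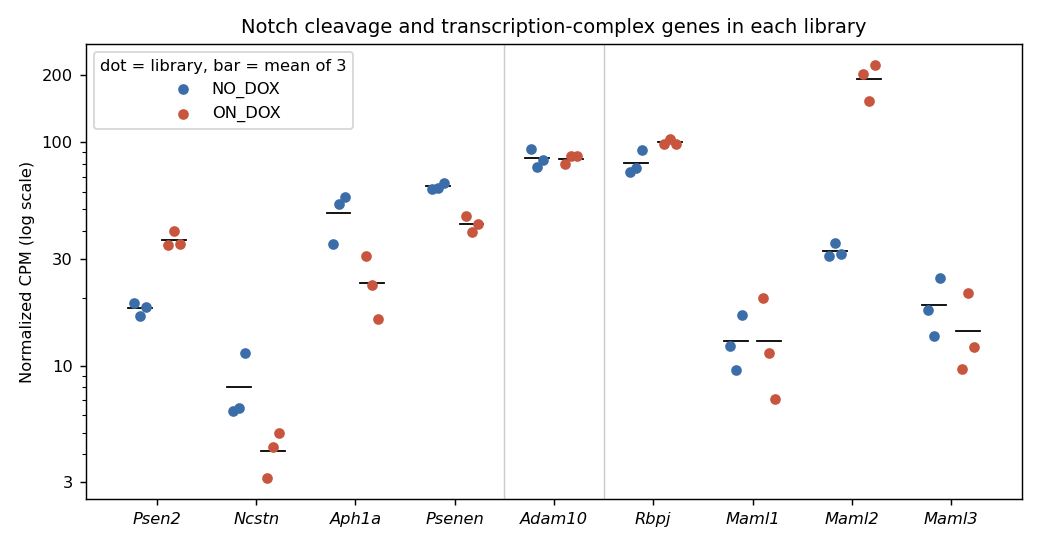
Normalized CPM on a log axis for each of the 9 genes in each library, NO_DOX in blue and ON_DOX in red, with the mean of 3 libraries as a bar. Maml2 moves from 30.9 to 35.5 CPM up to 154 to 222 CPM, while the Adam10 libraries of both groups lie between 77.4 and 93.0 CPM.

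Maml2 changed most. It encodes a Mastermind coactivator, and it lies on chromosome 9 from 13296561 to 13709533 on the forward strand (GRCm38.p6). Its level was 30.9, 35.5 and 31.7 CPM without Dox (in the order of replicates 4, 5 and 6) and 202, 154 and 222 CPM with Dox (in the order of replicates 10, 11 and 12, as in all such series of values). Every library with Dox stood far above every library without it, and replicate 11 was the lowest of the Dox libraries. The mean rose 5.90-fold, from 32.7 ± 2.4 to 193 ± 35 CPM (SD, n = 3 each). The log2 fold change was 2.56 ± 0.20 (SE; edgeR adjusted p = 8.42e-06). Of all tested genes, 13.9% had a change of at least this size in either direction. The call held in each of the 14 refits with another tool, scaling, filter or set of libraries, with log2 fold changes of 2.06 to 2.87.

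Neither of the other Mastermind genes passed the test. Maml1, on chromosome 11, had 12.2, 9.52 and 16.8 CPM without Dox and 20.1, 11.4 and 7.12 CPM with Dox. The groups overlapped, with a log2 fold change of 0.0018 and a 95% interval of -0.97 to 0.97 (adjusted p = 0.998, edgeR). Maml3, on chromosome 3, had 17.8, 13.6 and 24.6 CPM without Dox and 9.66, 21.1 and 12.1 CPM with Dox. Its groups also overlapped, with a log2 fold change of -0.38 and an interval of -1.23 to 0.47 (adjusted p = 0.444, edgeR). At 47 to 205 counts per library, neither interval excludes a value with Dox that is 1.5-fold lower. The sign of the Maml1 value turned under 8 of 14 alternatives, none of which called it. Maml3 passed the test only when a trend with transcript length was removed (log2 fold change -1.05, adjusted p = 0.0461).

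The make-up of the Mastermind transcripts therefore differed between the groups. The libraries were primed on the poly(A) tail, a method designed to give about 1 fragment per transcript, so counts of different genes in a library were set side by side. A trend of the group difference with transcript length, which is given with Psenen, can still enter shares and ratios. Maml2 took 50.7%, 60.6% and 43.4% of the summed Mastermind counts without Dox and 87.2%, 82.5% and 92.0% with Dox. Maml1 went from 19.8% ± 3.4 to 5.92% ± 2.87, and Maml3 from 28.7% ± 5.2 to 6.84% ± 3.92 (SD, n = 3 each). Groups did not overlap for any of the 3 shares, and these shares do not depend on scaling between libraries. The ratio of Maml2 to Maml1 counts ran 2.52, 3.72 and 1.89 in the NO_DOX libraries and 10.04, 13.5 and 31.3 in the ON_DOX libraries. Summed over the 3 genes, the mean level went from 64.2 to 220.0 CPM, so that the difference in the sum was that of Maml2. The fold change of Maml2 relative to Maml1 was 5.89 as reported and 5.49 with the length trend removed, and relative to Maml3 it was 7.67 and 8.63.

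**Figure D2:**
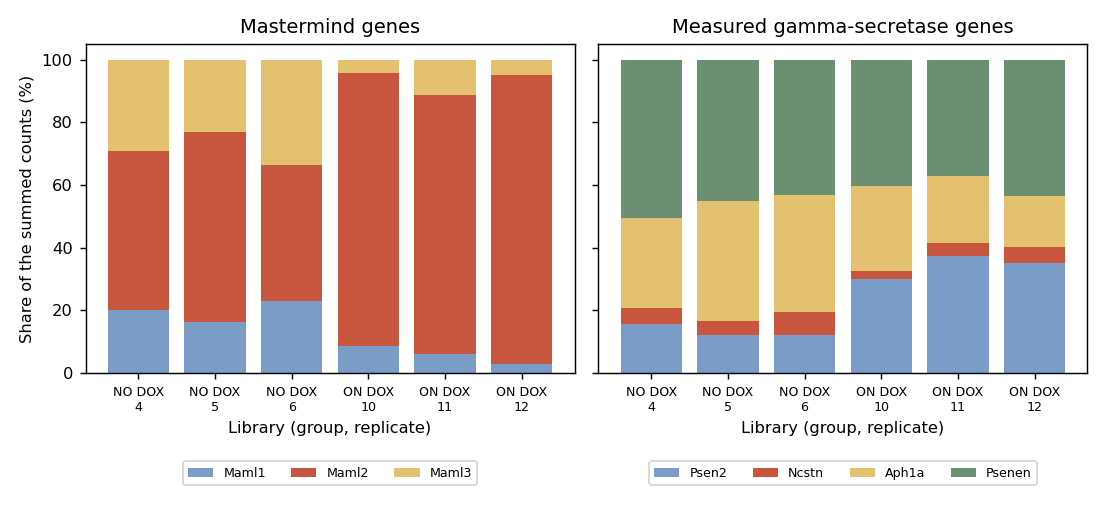
Stacked bars of the share (%) of each gene in the summed counts of its family, 1 bar per library, for the Mastermind genes and for the 4 gamma-secretase genes. Maml2 takes 43.4% to 60.6% without Dox and 82.5% to 92.0% with Dox, and Psen2 takes 11.99% to 15.7% and 29.9% to 37.5%.

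The 2 transcription starts that RefSeq's promoter table holds for Maml2 are shown because this gene carries the largest change of the set, and the 3′ counts do not tell which start was used. The bases before each start are printed 5′ to 3′ from that table (build GRCm38.p6), and capitals mark the letters TGGGAA or their reverse complement TTCCCA, the core that RBPJ is known to bind. The first window, chr9:13297708-13297956 on the forward strand, leaves out 1 base that GENCODE counts as exon. Both windows lie inside the span given above for the gene, downstream of its 5′ end.
Maml2, first start: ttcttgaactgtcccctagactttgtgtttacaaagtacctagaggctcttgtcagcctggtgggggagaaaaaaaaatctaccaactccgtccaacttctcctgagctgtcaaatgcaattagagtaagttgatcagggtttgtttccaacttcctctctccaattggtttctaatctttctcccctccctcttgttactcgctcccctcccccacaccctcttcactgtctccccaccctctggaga
Maml2, second start, chr9:13662210-13662459 on the forward strand: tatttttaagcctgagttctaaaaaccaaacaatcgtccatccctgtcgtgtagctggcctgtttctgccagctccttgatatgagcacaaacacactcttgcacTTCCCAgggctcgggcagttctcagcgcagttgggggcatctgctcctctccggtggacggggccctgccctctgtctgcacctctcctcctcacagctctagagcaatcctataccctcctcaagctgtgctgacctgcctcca
The core was found 0 times before the first start and 1 time before the second, at position -145 from the start. It occurs on either strand in 21.6% of the 32851 promoter windows of 250 bases in the table, so a single match is common and is a description only. The first window holds 2 CpG dinucleotides and the second 6, against a median of 6 over all windows.

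Rbpj, the DNA-binding partner of the Notch fragment on chromosome 5, was among the higher genes of the set in both groups. Its level was 73.7, 76.8 and 92.2 CPM without Dox and 98.1, 103 and 98.4 CPM with Dox. The groups did not overlap, but replicate 6 without Dox came close to the Dox libraries. The log2 fold change of 0.30 ± 0.17 (SE) did not pass the test (95% interval -0.07 to 0.68, adjusted p = 0.171, edgeR). With scaling by library size only, Rbpj passed at 0.61 (adjusted p = 0.0176), a scaling that took the all-gene median from 0.07 to 0.38. With the length trend removed its value turned to -0.09. The ratio of Maml2 to Rbpj counts ran 0.419, 0.462 and 0.344 in the NO_DOX libraries and 2.06, 1.49 and 2.26 in the ON_DOX libraries. Maml2 thus had fewer counts than Rbpj in every NO_DOX library and more in every ON_DOX library.

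**Figure D3:**
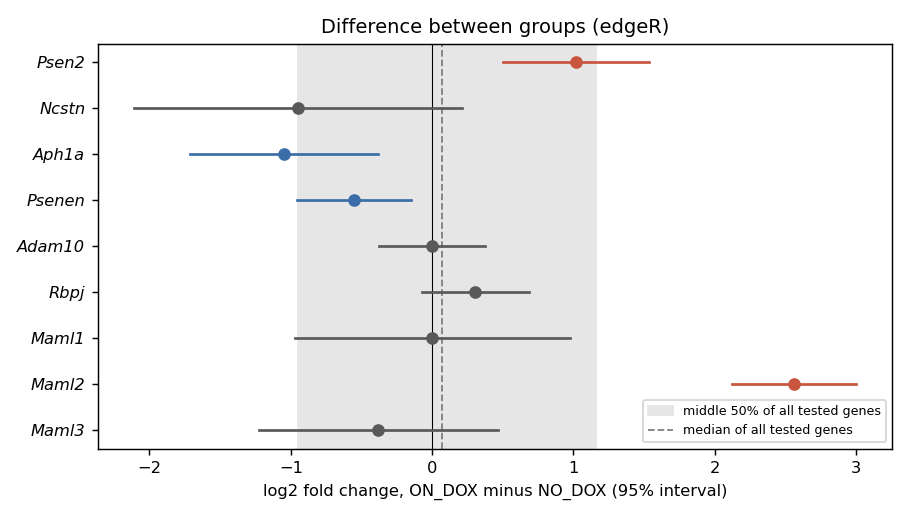
Log2 fold change (ON_DOX minus NO_DOX) of each gene with its 95% interval from edgeR, red for higher, blue for lower and grey for not called. The shaded band holds the middle 50% of all tested genes (-0.95 to 1.16), and Maml2 alone of the 9 has its whole interval above the band.

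Psen2, on chromosome 1 from 180227004 to 180263467 on the reverse strand, encodes presenilin 2, a catalytic subunit of gamma-secretase. Its level was 19.1, 16.6 and 18.3 CPM without Dox and 34.6, 40.0 and 35.1 CPM with Dox. The 3 Dox libraries lay together above the 3 others, and spread was small in both groups. The mean rose 2.03-fold. On the log2 scale the difference was 1.02 ± 0.23 (SE; edgeR adjusted p = 0.00518). A change of at least this size was seen in 51.3% of all tested genes. The log2 fold change stayed between 0.88 and 1.34 over the alternatives, and leaving out replicate 5 without Dox took the adjusted p-value to 0.0508.

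Psen2 is shown with the windows before the 2 starts that the promoter table holds (GRCm38.p6, reverse strand), as the other gene of the set that rose. Both lie inside the gene's span, downstream of its 5′ end at 180263467.
Psen2, first start, chr1:180256301-180256550: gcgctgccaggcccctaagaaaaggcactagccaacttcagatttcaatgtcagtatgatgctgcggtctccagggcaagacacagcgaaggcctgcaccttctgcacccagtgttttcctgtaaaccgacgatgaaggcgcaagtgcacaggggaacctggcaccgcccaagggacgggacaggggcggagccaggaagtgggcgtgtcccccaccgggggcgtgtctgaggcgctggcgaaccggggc
Psen2, second start, chr1:180245951-180246200: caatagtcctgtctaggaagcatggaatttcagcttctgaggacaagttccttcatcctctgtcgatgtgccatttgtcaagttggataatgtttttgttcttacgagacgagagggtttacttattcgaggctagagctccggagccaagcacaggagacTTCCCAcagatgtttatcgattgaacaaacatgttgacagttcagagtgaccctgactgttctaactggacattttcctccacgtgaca
The window before the second start holds 1 core at position -89, within the longer form GTGGGAA (here as its reverse complement TTCCCAC), which occurs in 5.42% of all windows. The window before the first start holds 0 cores and 15 CpG dinucleotides. Over the other 7 genes, the core was found before starts of Rbpj, Maml3 and Psenen, and not in the windows of Adam10, Aph1a, Maml1 and Ncstn. A window without these letters says nothing of the factor.

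Aph1a, on chromosome 3 from 95893921 to 95898592, encodes the most abundant APH1 scaffold of gamma-secretase in these libraries. Its level was 34.9, 52.9 and 57.1 CPM without Dox and 31.0, 22.8 and 16.2 CPM with Dox. The groups did not overlap, though replicate 4 without Dox and replicate 10 with Dox were close. The mean was 2.07-fold lower with Dox. Its log2 difference was -1.05 ± 0.30 (SE; edgeR adjusted p = 0.0164). A change of at least this size in either direction was seen in 50.3% of all tested genes. The call was lost without replicate 5 or replicate 6 of the group without Dox (adjusted p = 0.0574 and 0.0648) and with library size only (-0.74, adjusted p = 0.0791). Exons of Car14 on the opposite strand share 445 bases with those of Aph1a near its 3′ end, but Car14 had 1 count in all 6 libraries together.

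Psenen, on chromosome 7 from 30561865 to 30563627, encodes PEN-2, the small subunit that completes the enzyme. Its level was 61.6, 62.6 and 65.8 CPM without Dox and 46.7, 39.6 and 43.2 CPM with Dox. The groups were well apart and each was tight. The mean was 1.47-fold lower with Dox. The log2 fold change was -0.55 ± 0.18 (SE; edgeR adjusted p = 0.0303). Of all tested genes, 71.7% had a change of at least this size in either direction. The call was lost without replicate 4, 5 or 6 of the group without Dox or replicate 11 with Dox (adjusted p = 0.0767, 0.0783, 0.0644 and 0.0582), and with library size only (-0.24, adjusted p = 0.314). Psenen has the shortest transcript of the set, 708 bases, and across 11992 genes longer transcripts tended to be higher with Dox (Spearman's rho 0.282 across genes, which are not independent replicates). With that trend removed its value turned to 0.37 (adjusted p = 0.121). Rbpj and Psenen also have pseudogenes, and since the assignment of reads that map to several places is not stated, their counts carry that uncertainty.

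Ncstn, on chromosome 1, encodes nicastrin, the large extracellular subunit, and was the lowest gene of the set at 23 to 67 counts per library. Its level was 6.27, 6.49 and 11.4 CPM without Dox and 3.13, 4.32 and 5.01 CPM with Dox. The groups did not overlap, but the difference did not pass the test (log2 fold change -0.95, 95% interval -2.11 to 0.21, adjusted p = 0.165, edgeR). That interval holds both no difference and a level with Dox that is 2-fold lower.

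Within the 4 gamma-secretase genes, Psen2 took 15.7%, 11.99% and 12% of the summed counts without Dox and 29.9%, 37.5% and 35.2% with Dox. Aph1a went from 34.8% ± 5.3 to 21.5% ± 5.3 (SD, n = 3 each), again with no overlap. The shares of Psenen (46.3% ± 3.8 and 40.3% ± 3.2) and Ncstn (5.76% ± 1.48 and 3.93% ± 1.17) overlapped between the groups. Without Dox there were 3.23, 3.77 and 3.59 counts of Psenen for each of Psen2, and with Dox 1.35, 0.990 and 1.23. The fold change of Psen2 relative to Psenen was 2.97 as reported and 1.96 with the length trend removed, and relative to Aph1a it was 4.19 and 4.86. The summed level of the 4 genes was 122 to 153 CPM without Dox and 99.5 to 115 CPM with Dox. That difference depended on the scaling: by library size only, the sums were 106, 123 and 141 CPM without Dox and 131, 119 and 107 CPM with Dox, and overlapped. Counts of transcripts do not give the amount of assembled enzyme.

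The APH1 family shifted in its make-up as well. Aph1a took 86.0%, 91.6% and 91.6% of the counts of Aph1a, Aph1b and Aph1c without Dox and 65.0%, 72.8% and 62.4% with Dox. Aph1b and Aph1c are similar neighbouring genes of chromosome 9, so reads may be split between them, and neither passed the test alone (log2 fold change 1.10, adjusted p = 0.165, and 1.19, adjusted p = 0.238, edgeR). Aph1b had 12 to 20 counts without Dox and 40 to 62 with Dox, and Aph1c 4 to 19 and 21 to 61.

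Adam10, on chromosome 9 from 70678944 to 70780229, encodes the protease of the first cut. Its level was 93.0, 77.4 and 83.2 CPM without Dox and 80.2, 86.5 and 86.7 CPM with Dox. The values of the groups lay within each other, and the means were 84.5 ± 7.9 and 84.4 ± 3.7 CPM (SD, n = 3 each). The log2 fold change was -0.0021 with a 95% interval of -0.38 to 0.37 (adjusted p = 0.992, edgeR), and among the alternatives it lay between -0.24 (no length trend) and 0.31 (library size only). Of all tested genes, 99.9% had a larger change. Adam17, a related sheddase, had 35.2, 41.8 and 42.2 CPM without Dox and 47.6, 49.4 and 66.2 CPM with Dox, and its difference did not pass (log2 fold change 0.45, adjusted p = 0.109, edgeR).

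The order of levels among the 9 genes differed between the groups. Without Dox it ran Adam10, Rbpj, Psenen, Aph1a, Maml2, Maml3, Psen2, Maml1 and Ncstn. Neighbours whose ranges overlapped there were Adam10 and Rbpj, Aph1a and Maml2, and each neighbour from Maml3 down to Ncstn. With Dox it ran Maml2, Rbpj, Adam10, Psenen, Psen2, Aph1a, Maml3, Maml1 and Ncstn, with Maml2 at 193 CPM and Ncstn at 4.15 CPM at the ends. There the ranges of Psenen and Psen2 overlapped, as did those of Aph1a and Maml3 and of Maml3 and Maml1. Maml2 thus stood in the fifth place without Dox and in the first with Dox.

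**Figure D4:**
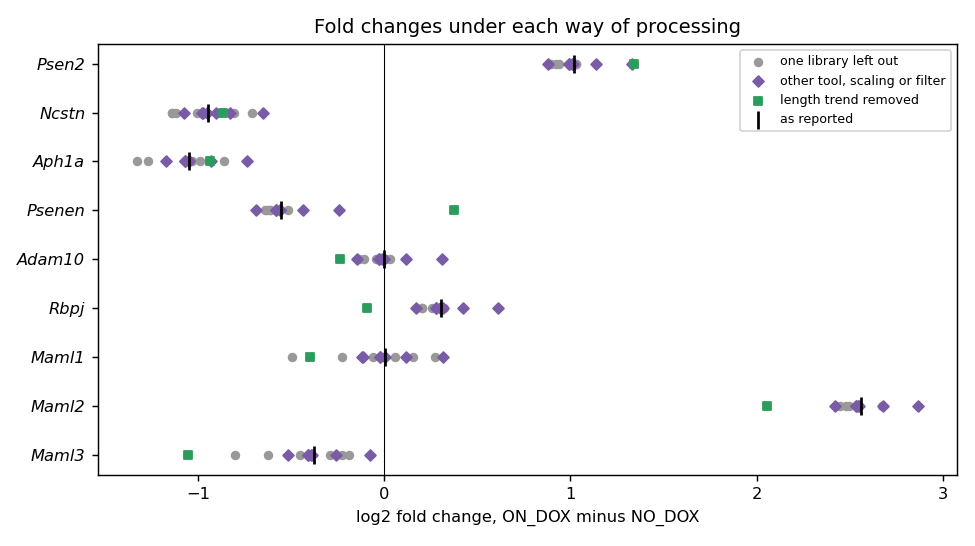
Log2 fold change of each gene as reported (black bar), with 1 library left out (grey), with another tool, scaling or filter (purple) and with the length trend removed (green). Maml2 stays between 2.06 and 2.87, while Psenen crosses 0 with the length trend removed.

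Genes that act with these enzymes were followed in 4 lists, of which 45.8% of the 48 tested genes were called, with a median log2 fold change of 0.31 against 0.073 over all genes. In the list of cleavage partners, 4 of 15 tested genes rose and 1 fell, 33.3% of the list beside 45.6% of all genes, with a median of 0.79. Tspan10, Tspan15 and Tspan33 rose, tetraspanins of the group that escorts ADAM10 to the cell surface, and so did Timp3, an inhibitor of ADAM proteases. Tspan10 had 1.94, 2.43 and 2.03 CPM without Dox and 9.39, 20.6 and 16.3 CPM with Dox. On the log2 scale the difference was 2.85 ± 0.47 (SE; edgeR adjusted p = 0.000856). Timp3 went from 19.9 ± 3.9 to 121 ± 24 CPM (SD, n = 3 each). Its log2 difference was 2.60 ± 0.23 (SE; edgeR adjusted p = 2.1e-05). Both stood clear of the other group in every library. Tspan15 had a log2 fold change of 1.93 (adjusted p = 0.0404, edgeR) from 5 to 68 counts per library, and it failed in 6 of 13 refits, among them those without replicate 5 or 6 of the group without Dox and without replicate 10 or 12 with Dox (adjusted p up to 0.17). Tspan33, named after its value was seen, had means of 40.5 and 88.7 CPM (adjusted p = 0.000942, edgeR). Tspan5, Tspan14 and Tspan17, of the same group, did not pass (log2 fold changes -0.04, -0.35 and -0.33). The gene that fell was Rer1, whose product retains unassembled gamma-secretase subunits in the early secretory pathway. It had 83.0, 97.7 and 115 CPM without Dox and 32.9, 33.6 and 19.4 CPM with Dox. The log2 fold change was -1.78 ± 0.25 (SE; edgeR adjusted p = 0.000328).

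Of 10 tested coactivators and turnover factors of the Notch complex, 2 rose and 2 fell (40.0%, beside 45.6% of all genes), with a median of 0.13. Ep300, an acetyltransferase recruited by Mastermind proteins, had 61.2, 52.3 and 63.7 CPM without Dox and 144, 144 and 262 CPM with Dox (log2 fold change 1.63 ± 0.25 (SE), adjusted p = 0.000584, edgeR). All 3 Dox libraries were higher, and replicate 12 stood above the other two. Its relative Crebbp rose by 1.06 on the log2 scale (adjusted p = 0.00262, edgeR), a call lost with the length trend removed (adjusted p = 0.441). Ccnc, which encodes cyclin C of the kinase module that marks the Notch fragment for degradation, fell, with a log2 difference of -1.45 ± 0.41 (SE; edgeR adjusted p = 0.0153). It had 14.3, 20.1 and 22.7 CPM without Dox and 5.31, 10.6 and 4.88 CPM with Dox, and it missed the threshold without replicate 5 or replicate 6 of the group without Dox (adjusted p up to 0.0572). The acetyltransferase gene Kat2a, with a log2 fold change of -0.93 (adjusted p = 0.0481, edgeR), kept its call in only 6 of 14 refits and lost it, among others, without each of the 3 libraries without Dox and without replicate 10 or 12 with Dox.

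RBPJ also recruits corepressors when no Notch fragment is bound. Of 19 such genes, 6 rose and 4 fell (52.6%, beside 45.6% of all genes), with a median of 0.30. Gps2, a subunit of the NCoR complex, rose by 1.33 on the log2 scale, Ctbp2, a corepressor, by 1.26, and L3mbtl3, a chromatin factor that binds RBPJ, by 1.19 (adjusted p = 0.00132, 0.00605 and 0.00352, edgeR). These 3 kept their calls in all 14 refits. Tbl1x, another subunit of the NCoR complex, fell from 119 ± 9 to 57.8 ± 8.2 CPM (SD, n = 3 each). On the log2 scale the difference was -1.04 ± 0.18 (SE; edgeR adjusted p = 0.00116). Members of 1 complex thus moved in opposite directions. Hdac3, the deacetylase of that complex, had a log2 fold change of -1.08 (adjusted p = 0.026, edgeR), a call lost in 5 of 14 refits, with library size only and without replicate 4, 5 or 6 of the group without Dox or replicate 11 with Dox. Rita1, whose product carries RBPJ out of the nucleus, had 48, 31 and 40 counts without Dox and 12, 0 and 0 with Dox (adjusted p = 0.044, edgeR). This call rested on few counts and held in only 6 of 13 refits, being lost without any of the 3 libraries without Dox and without replicate 11 or 12 with Dox. Spen and Ncor1, named after their values were seen, rose by 0.89 and 0.54 on the log2 scale. Both turned sign with the length trend removed, and both lost their call without replicate 6 of the group without Dox, Ncor1 also without replicate 5 and with no filter.

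**Figure D5:**
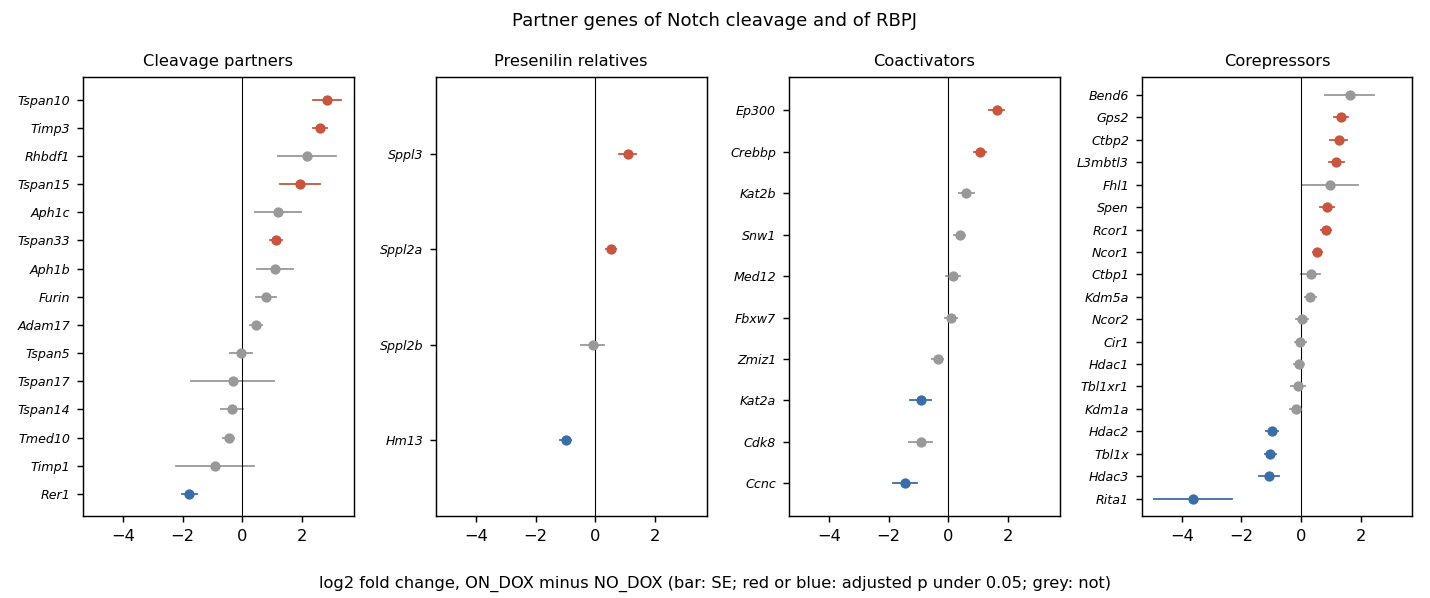
Log2 fold change (ON_DOX minus NO_DOX) with its SE for the 48 tested partner genes in 4 lists, red for higher, blue for lower and grey for not called. Of these genes 14 rose and 8 fell, with Tspan10 (2.85) and Rita1 (-3.64) at the ends.

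The genes whose pattern over the 6 libraries was most like that of Maml2 and of Aph1a were sought among the 12337 tested genes with counts in every library. Likeness was the root mean square difference of log2 CPM centred on each gene's mean. For Maml2 they were Zup1 (0.114), Lyn (0.120) and Tep1 (0.132). Lyn, a Src-family kinase gene of B cells and myeloid cells, had 31.6, 40.5 and 30.7 CPM without Dox and 235, 185 and 268 CPM with Dox. Replicate 11 was the lowest of the Dox libraries for Zup1, Lyn and Tep1, as for Maml2, and the choice by likeness favours this. For Aph1a they were Fance (0.105), Ubp1 (0.124) and Snrpd3 (0.124). This measure counts the size of the group difference as well as the order of the libraries.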

How the data were processed

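Messenger RNA 3′ ends were sequenced from spleen in 6 libraries (QuantSeq, forward version), 3 without and 3 with Dox, per the labels' protocols. The authors deposited an unnormalized count for each Entrez gene ID in each library. The submitters' processing notes name STAR, featureCounts and GRCm38. Annotation, strand setting, multi-mapping reads and molecular identifiers are not given in the sources used here.

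Symbols came from RefSeq's GRCm38.p6 gene table (39374 of 40808 IDs matched), promoter windows from its promoter table, and transcript lengths (the longest per gene) and exon overlaps from GENCODE M21. The test was that of edgeR 4.0.16, run in R 4.3.3 (filterByExpr with minimum count 10 and total 15, TMM, quasi-likelihood F-test, no covariate), with Benjamini-Hochberg adjustment over all tested genes. A standard error is the log2 fold change over the square root of F, and 95% intervals from these. The procedure was also run on simulated counts that had the same spread in both groups. That run does not cover the larger spread seen with Dox, and nothing is concluded from it. Shares use raw counts. Floors cover counting error only, and SDs the spread between libraries.

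Members and lists were chosen with earlier results of these data known. In each partner list, up to 3 called genes with the largest rise and fall are named; others were named after their values were seen. A listed coactivator gene is not reported here and was left out of the lists. Alternatives were RLE factors, library size only, 2 other filters, DESeq2 1.42.0, limma-voom (limma 3.58.1), no haemoglobin genes, a threshold of 0.01 and leaving out each library. Removal of a loess trend with transcript length, and family sums scaled by library size only, were added after seeing the data.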

Additional observations from a re-analysis of the deposited data

How the results depend on the processing

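No paired analysis was possible because NO_DOX replicates are numbered 4 to 6 and ON_DOX replicates 10 to 12. Maml2 and Ncstn kept their direction and their side of the threshold in all 14 refits, and the Mastermind and gamma-secretase shares kept theirs without each library in turn. The number of the 9 genes called, 4 as reported, was 2 at an adjusted p-value under 0.01 and 1 to 4 with a library left out (1 leaving out NO_DOX replicate 5, 2 leaving out NO_DOX replicate 6). The share of all genes called, 45.6% as reported, was also lower in these fits, at 31.2% with the stricter threshold, 30.6% without NO_DOX replicate 5 and 31.8% without NO_DOX replicate 6. The number higher, 2 as reported, was 1 to 2 with a library left out. The number lower, 2 as reported, was 0 with library size only, 1 with at least 10 counts in every library, 0 at the stricter threshold and 0 to 2 with a library left out. Of the partner genes, 22 were called as reported, 13 at the stricter threshold (9 higher and 4 lower) and 14 to 24 with a library left out (14 leaving out NO_DOX replicate 5 or 6; 10 to 16 higher, 4 to 8 lower). Of these, 5 were lower with library size only and 9 higher with the length trend removed, a fit on the 11992 genes with a length in place of 14110. Of the 22, 11 kept their call in every refit that gave a value. Among all genes, 2200 were higher at the stricter threshold in place of 3324.

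With library size only, Aph1a (-0.74) and Psenen (-0.24) lost their calls, Rbpj gained one (0.61) and Adam10 turned to 0.31; the all-gene median went from 0.07 to 0.38, and 4257 genes were higher and 2359 lower in place of 3324 and 3114. With at least 10 counts in every library, Psenen lost its call (-0.44, adjusted p = 0.0723) and Adam10 turned to 0.12. Maml1 turned to -0.025 with RLE factors and -0.024 with DESeq2, to -0.12 without a filter and to -0.11 with limma-voom. With the length trend removed, Psenen (0.37), Rbpj (-0.091) and Maml1 (-0.40) turned and Maml3 gained a call (-1.05). With a library left out, log2 fold changes ran from -0.49 to 0.27 for Maml1, from -0.13 to 0.03 for Adam10, from 0.89 to 1.03 for Psen2, from -1.33 to -0.86 for Aph1a and from -0.64 to -0.52 for Psenen. Maml1 turned to -0.06, -0.22 and -0.49 without replicates 4, 5 and 10, and Adam10 to 0.030 and 0.0077 without replicates 4 and 10. The causes were not tested. The limit of 3 counts stood at 0.309 to 0.608 CPM, and all 9 genes lay above it in every library.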

Other observations

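Relatives of the presenilins, intramembrane proteases that cut other membrane proteins, were also measured. Of 4 tested genes, 2 were higher and 1 was lower with Dox (edgeR, adjusted p under 0.05; 75% beside 45.6% of all genes). Hm13, which encodes signal peptide peptidase, had 94.5, 74.8 and 80.0 CPM in the NO_DOX libraries and 42.3, 42.9 and 40.2 CPM in the ON_DOX libraries. Its log2 difference was -0.99 ± 0.18 (SE; edgeR adjusted p = 0.00157), and it was called in all 14 refits. Sppl2a, the protease that clears the invariant chain of MHC class II in B cells and dendritic cells, was 104 ± 14 and 150 ± 4 CPM (log2 fold change 0.53 ± 0.16 (SE), adjusted p = 0.0242, edgeR), a call lost in 5 of 14 refits (adjusted p up to 0.607), among them those without replicate 5 or 6 of the group without Dox and without replicate 10 with Dox. Sppl3, which sheds glycosyltransferases in the Golgi, was 39.0 ± 7.4 and 82.7 ± 28.6 CPM (log2 fold change 1.08 ± 0.28 (SE), adjusted p = 0.0102, edgeR), and lost its call without replicate 4 or 5 of the group without Dox (adjusted p up to 0.0722). Sppl2b had a log2 fold change of -0.09 (adjusted p = 0.869, edgeR).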
